A study of Homo sapiens with 47 samples.

Results

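A set of 774 RNA polymerase II (RNAPII) intervals lay beside annotated transcription starts but almost never carried a peak of H3K27ac, the acetylation of histone H3 at lysine 27. They were selected by measured values from 20 RNAPII and 20 H3K27ac peak lists of Ishikawa cells, a human endometrial adenocarcinoma line. Peaks of all RNAPII lists were merged where they shared at least 1 bp, which gave 60739 intervals. Of these, 14511 held a peak in at least 14 of the 20 RNAPII lists, and 12474 of those lay within 1 kb of a GENCODE start on hg19. The 774 were the ones with H3K27ac peaks in at most 1 of 20 lists. They are called H3K27ac-poor intervals here, and the remaining 11700 are called the other recurrent RNAPII promoters. Among the H3K27ac-poor intervals, 549 overlapped no H3K27ac list and 225 overlapped 1. At the edges of the rule, 110 of them had exactly 14 RNAPII lists against 119 intervals outside the rule with 13, and 177 intervals outside the rule had exactly 2 H3K27ac lists.

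The study asked whether synthetic activators placed at sites normally bound by estrogen receptor could switch on the nearby genes without estrogen. All cells were grown in hormone-depleted medium and received by transient transfection either dCas9-VP16(10x), a catalytically dead Cas9 carrying copies of a viral activation domain, or dCas9-p300(core), which carries the catalytic core of an acetyltransferase. Each construct was given 5 sets of guide RNAs, namely Pool 1, Pool 2 and Pool 3 directed at estrogen receptor binding sites near *MMP17*, *CISH*, *FHL2* and *HES2*, the Adjacent pool directed at regions beside such sites, and a control set at the *IL1RN* promoter. There were 2 replicates in each of the 10 groups for RNAPII and for H3K27ac, no library of untransfected cells was used, and 7 further lists recorded the HA tag of the fusion proteins (5 for VP16 and 2 for p300). The H3K27ac library of VP16 with the Adjacent pool, replicate 1, was also labelled as having received the *IL1RN* guides.

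RNAPII is the enzyme that transcribes protein-coding genes. It is loaded at promoters, often pauses just downstream of them, travels through the gene, and continues for some distance past the polyadenylation site before it is released, so ChIP-seq can find it at the end of an active gene as well as at the start. H3K27ac is deposited by p300 and CBP and is a usual mark of active promoters and enhancers. Many vertebrate promoters lie in CpG islands, stretches in which the CpG dinucleotide has not been depleted. Gene annotation holds many transcripts besides the main one, among them retained-intron fragments that begin inside a gene, so a start in the annotation is not always a promoter.

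The windows below are the 120 bases just upstream of the nearest annotated start for H3K27ac-poor intervals with high RNAPII, printed 5′ to 3′ on the strand of the transcript from hg19 (GRCh37), with each CpG in capitals. They are shown because most of them do not look like the CpG-dense promoters found at the starts of active genes. The first 6 are those that could be printed from the 8 intervals with the highest RNAPII and no H3K27ac peak. The 2 that follow were added after the values were seen, as further intervals at the start of a protein-coding gene. The last 2 are the canonical starts of *NFE2L3* and *TCF7*, given for contrast with the internal starts of the same genes.
PRUNE2, chr9:79521031-79521150, minus strand, at the gene's start: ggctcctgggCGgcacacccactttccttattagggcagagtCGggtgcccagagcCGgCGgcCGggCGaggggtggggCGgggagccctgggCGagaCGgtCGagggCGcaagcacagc
POU2F2, chr19:42700738-42700857, minus strand, downstream of DEDD2: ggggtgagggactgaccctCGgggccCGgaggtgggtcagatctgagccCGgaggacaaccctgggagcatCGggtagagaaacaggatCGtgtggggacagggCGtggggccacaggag
NFE2L3, chr7:26223560-26223679, plus strand, late in the gene: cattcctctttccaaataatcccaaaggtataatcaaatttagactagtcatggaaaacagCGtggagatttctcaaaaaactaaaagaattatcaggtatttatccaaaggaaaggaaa
TCF7, chr5:133459189-133459308, plus strand, inside the gene: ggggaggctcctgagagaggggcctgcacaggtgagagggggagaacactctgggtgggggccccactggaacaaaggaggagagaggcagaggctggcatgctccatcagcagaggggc
SFPQ, chr1:35643263-35643382, minus strand, a noncoding transcript: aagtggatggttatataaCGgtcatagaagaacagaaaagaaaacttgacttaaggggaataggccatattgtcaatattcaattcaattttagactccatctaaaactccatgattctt
IDH3B, chr20:2640563-2640682, minus strand, late in the gene and past the end of NOP56: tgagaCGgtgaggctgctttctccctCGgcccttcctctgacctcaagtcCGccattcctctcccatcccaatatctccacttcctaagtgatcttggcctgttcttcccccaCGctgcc
MCCD1, chr6:31496619-31496738, plus strand, at the gene's start: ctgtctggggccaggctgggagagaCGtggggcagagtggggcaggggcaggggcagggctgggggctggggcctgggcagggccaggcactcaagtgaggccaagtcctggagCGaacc
RGS16, chr1:182573525-182573644, minus strand, at the gene's start: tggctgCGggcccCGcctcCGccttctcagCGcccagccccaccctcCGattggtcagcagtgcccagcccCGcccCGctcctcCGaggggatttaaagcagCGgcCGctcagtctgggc
NFE2L3 canonical start, chr7:26191698-26191817, plus strand: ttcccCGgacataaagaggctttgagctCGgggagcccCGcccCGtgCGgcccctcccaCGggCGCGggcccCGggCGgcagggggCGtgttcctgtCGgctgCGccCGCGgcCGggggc
TCF7 canonical start, chr5:133450252-133450371, plus strand: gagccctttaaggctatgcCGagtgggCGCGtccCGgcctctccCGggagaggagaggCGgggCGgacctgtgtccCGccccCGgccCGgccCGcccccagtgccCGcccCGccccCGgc

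The window of *PRUNE2* held 11 CpGs and that of *RGS16* 10, close to the 16 and 14 at the canonical starts of *NFE2L3* and *TCF7*. The internal starts of *NFE2L3* and *TCF7* held 1 and 0. *SFPQ* had 1, *MCCD1* 2, *IDH3B* 4 and *POU2F2* 6. The windows were thus of a CpG-dense kind at *PRUNE2* and *RGS16* and a CpG-poor kind at the others. They describe annotated starts, not always the sequence under the strongest RNAPII. The strongest RNAPII lay 4519 bp from the printed start at *SFPQ*, 2615 bp at *TCF7* and -2086 bp at *NFE2L3* (positive downstream).

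Most H3K27ac-poor intervals were not at the promoter of a protein-coding gene. Each interval was placed by its summit, the median over libraries of the position of each library's strongest RNAPII peak in it. In a wide interval this median can lie between peaks. The summit lay within 1 kb of the canonical start of a coding gene in 118 of 774 (15.2%, 95% Wilson interval 12.9 to 17.9), against 9576 of the 11700 other recurrent promoters (81.8%). It lay further inside a coding gene in 448 (57.9% against 9.27%), outside coding genes but up to 5 kb past the end of one in 164 (21.2% against 1.89%), and elsewhere in 44 (5.68% against 6.99%). The name promoter, which the rule gives to any interval within 1 kb of an annotated start, thus held in its usual sense for a minority under the rule. When only the 10 p300 H3K27ac lists were used, 2052 intervals passed and 53.2% of them were at a coding start. Intervals and shares over regions cover counting error only, and neighbouring intervals are not independent.

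**Figure D1:**
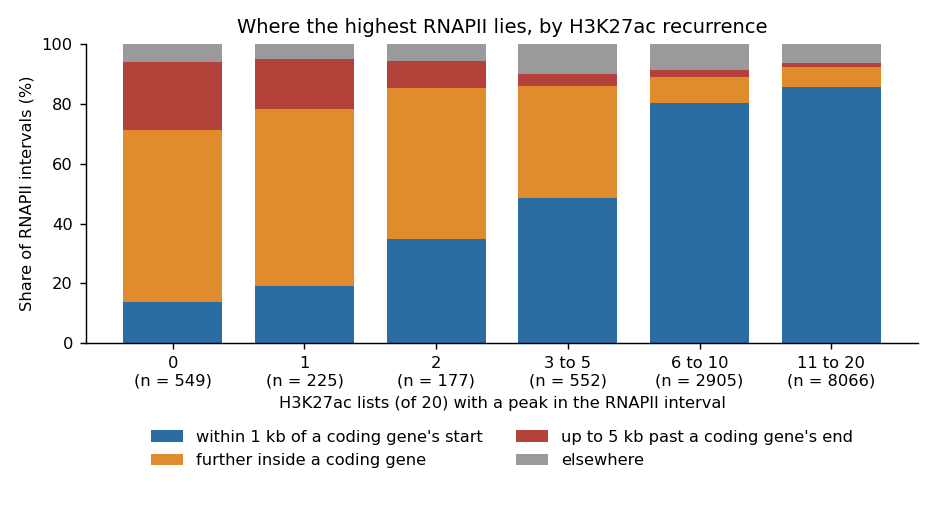
Share of recurrent RNAPII intervals (vertical axis, percent) whose summit lay at the canonical start of a coding gene, further inside one, up to 5 kb past the end of one, or elsewhere, by the number of H3K27ac lists with a peak in the interval (horizontal axis). The share at coding starts was 13.7% with 0 H3K27ac lists and 19.1% with 1, the groups described here, and 35%, 48.4%, 80.3% and 85.7% in the 4 groups with more lists.

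The location changed by steps with the number of H3K27ac lists, and the 2 groups inside the rule were at one end of that order. The share at coding starts was 13.7% among the 549 intervals with no H3K27ac list and 19.1% among the 225 with 1. Just outside the rule, at 2 lists, it was 35%. The share past the end of a gene ran the other way, from 23% with 0 lists to 1.44% with 11 to 20.

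The ends of genes accounted for much of the set. Inside host genes, the 448 summits lay a median 81.1% of the way from start to end, and 258 of them (57.6%) were beyond 75% of its length, against 33.3% of the other promoters inside genes. Of the same 448, 222 (49.6% against 24.8%) were at once within 5 kb past the end of a neighbouring coding gene. Away from coding starts, 501 of 656 (76.4%) lay beyond 75% of the length of a host or within 5 kb past an end, against 696 of 2124 other promoters (32.8%). Over the whole set, the summit was within 5 kb of the nearest coding gene end, on either side, in 555 of 774 (71.7%) and in 2724 of 11700 others (23.3%). For the 164 outside coding genes and past an end, the median distance beyond it was 1600 bp.

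**Figure D2:**
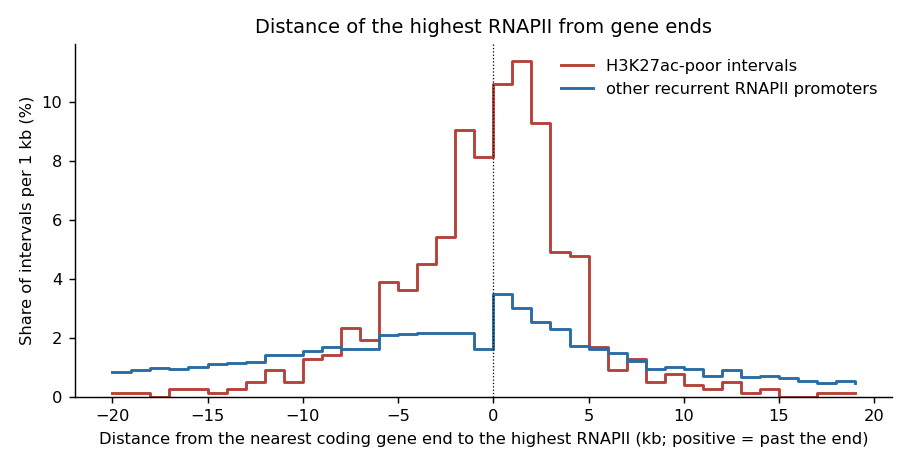
Distance from the nearest end of a coding gene to the RNAPII summit (horizontal axis, kb, positive past the end), as the share of intervals per 1 kb (vertical axis, percent), for the 774 H3K27ac-poor intervals and the 11700 other recurrent RNAPII promoters. The H3K27ac-poor intervals pile up around the ends of genes, with 71.7% of them within 5 kb, and the other promoters do so in 23.3%.

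The genes that these intervals lay in or behind were mostly acetylated and occupied at their own starts. For the 612 intervals away from coding starts with a gene around or just upstream, 532 different genes were involved. The canonical start of that gene carried H3K27ac in at least 2 lists in 539 of 612 (88.1%) and RNAPII in at least 14 lists in 521 (85.1%), with a median of 13 H3K27ac lists. The same held for most of the other promoters away from coding starts, at 83.8% and 72.2%, with a median of 12 lists. The nearest recurrent H3K27ac region, merged from peaks of at least 2 lists, was a median 4782 bp from the nearest edge of the RNAPII interval (95% interval 4117 to 5193, quartiles 1671 and 11600). It was within 1 kb for 124 intervals (16.0%), within 5 kb for 400 (51.7%) and beyond 20 kb for 118 (15.2%). ChIP-seq does not record strand, so at overlapping or convergent genes the transcript that the polymerase was making could not be assigned.

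The annotated starts next to these intervals were of other kinds than at the other promoters. The nearest start belonged to a protein-coding transcript in 213 (27.5% against 59.2%), to a retained-intron transcript in 188 (24.3% against 8.95%), to a long noncoding RNA in 154 (19.9% against 11.5%) and to a transcript of a coding gene with no defined coding sequence in 118 (15.2% against 9.32%). It was the canonical start of its gene in 228 (29.5% against 35.1%), and at coding starts alone in 55.1% against 37.4%. Small nucleolar RNAs, which guide RNA modification and often sit in the introns of host genes, gave the nearest start in 10, against 7 of the 11700 others. Summits were a median 528 bp from the nearest start, against 43 bp. The H3K27ac-poor intervals were also wider, with a median of 1808 bp (5th to 95th percentile 576.6 to 5437) against 1268 bp. Chromosomes 19 and 17, which are dense in genes, held 98 (12.7% against 8.17%) and 89 (11.5% against 6.30%) of them.

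At the 8 intervals with the highest RNAPII and no H3K27ac peak, every one of the 20 libraries had a peak. RNAPII is given as fold enrichment, the read density at the summit of the highest peak over the local background that the peak caller estimated. The intervals were ranked by level, the median over libraries of the log2 fold enrichment after subtraction of each library's median over the 8574 intervals found in all 20 lists. Values of different intervals compare enrichments at a summit, not transcription rates.

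*PRUNE2*, which encodes a BCH domain protein, came first, with a level of 1.45. The interval (chr9:79520711-79521644) lay at the start of the gene, and the nearest recurrent H3K27ac region was 242449 bp away. Fold enrichment was 16.2, 30.6 and 52.4 (lowest, median and highest of 10 libraries) with VP16 and 7.41, 72.1 and 110 with p300. The value of 7.41 came from p300 *IL1RN* replicate 1, and the other 9 p300 libraries lay between 49.0 and 110. This was an RNAPII promoter in the usual sense, with the CpG-dense window printed above.

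The next places were filled by ends of genes and internal sites. *MRNIP* (chr5:179263087-179270937; level 1.07) marked an interval 2858 bp past the end of *SQSTM1*, the gene of the autophagy receptor p62, whose own start had H3K27ac in all 20 lists. Enrichment there was 14.5, 23.3 and 33.9 with VP16 and 28.4, 45.7 and 78.8 with p300. The interval named by *POU2F2* (chr19:42698132-42702246; level 0.91), a POU homeobox factor of lymphoid cells, was 1841 bp past the end of *DEDD2*, whose start had H3K27ac in 16 lists. Its values were 12.2, 20.1 and 30.9 with VP16 and 21, 50.1 and 73.5 with p300. Both pairs of ranges overlapped, with most p300 libraries above most VP16 libraries on this scale.

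In *NFE2L3*, a transcription factor of the CNC bZIP family, the summit was 85.2% of the way along the gene (chr7:26217893-26224450; level 0.91), with 15, 29.2 and 35.8 in VP16 libraries and 17.6, 34.5 and 53.3 in p300 libraries. In *TCF7*, a nuclear effector of Wnt signalling, the interval (chr5:133457131-133470242; level 0.72) was the widest of the 774 at 13112 bp, had its summit 34.5% along the gene, and gave 10.0, 18.8 and 29.3 with VP16 and 22.8, 37.8 and 67.0 with p300. The canonical starts of these genes had H3K27ac in only 3 and 4 lists. These are the internal sites whose printed windows are almost free of CpG.

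*SFPQ*, a splicing factor of paraspeckles, had an interval (chr1:35636285-35644302) outside the canonical gene with 11.4, 22.4 and 28.9 in VP16 libraries and 11.8, 23.4 and 48.6 in p300 libraries. At *IDH3B*, a subunit of mitochondrial isocitrate dehydrogenase that is convergent with *NOP56*, a core protein of box C/D snoRNPs, the summit was 539 bp past the end of *NOP56* (chr20:2638906-2641490), and the values were 17.8, 29.0 and 36.4 with VP16 and 12.5 and 17.5 (lowest and median) with p300, whose highest library lay above the highest VP16 library. *SLC4A5*, a sodium bicarbonate cotransporter, had 14, 23.2 and 30.8 with VP16 and 20.1, 24.6 and 42.5 with p300 (chr2:74448076-74454583). The constructs overlapped at all 8 intervals. On this uncentred scale *IDH3B* was the one with the lower p300 median, whereas after centring the p300 median was also lower at *NFE2L3* (0.43 against 1.08), *SFPQ* (-0.49 against 0.75) and *SLC4A5* (0.25 against 0.76).

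**Figure D3:**
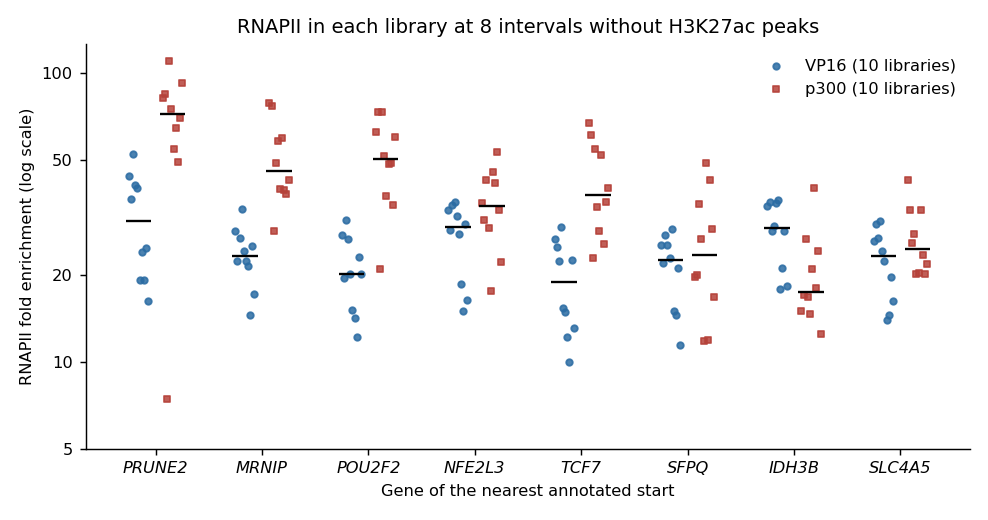
RNAPII fold enrichment (vertical axis, log scale) in each of 10 VP16 and 10 p300 libraries at the 8 H3K27ac-poor intervals with the highest level and no H3K27ac peak, with bars at the medians. The VP16 and p300 points overlap at each interval, and 1 p300 point at *PRUNE2* (7.41) lies far below the other 9.

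Ranks 9 to 24 of the same order again mixed gene ends with a few true starts. Past an end lay, among others, *ZNF232-AS1* (832 bp beyond *ZFP3*), *RCC2-AS1* (1720 bp beyond *RCC2*) and *SERPINH1* (2794 bp beyond its own end; it encodes the collagen chaperone HSP47). *SF3B3*, a component of the U2 snRNP, had its summit 99.5% along the gene, and *PANK2* marked a site 97.7% along *RNF24*. At coding starts were *RGS16*, a regulator of G protein signalling, with 11.5, 19.1 and 24.3 (VP16) and 14.6, 30.7 and 44.5 (p300), *CRISPLD2*, a secreted protein, with 11.7, 16.1 and 19.4 and 12.3, 32.6 and 41.6, and *MCCD1* and *PYGM*. Both of the latter also lay past the end of a neighbour, 1122 bp beyond *ATP6V1G2-DDX39B* for *MCCD1* and 4653 bp beyond *SF1* for *PYGM*, the muscle glycogen phosphorylase gene. Others of these ranks were *MIR130AHG*, *RN7SKP80*, *ADCY7*, *SNHG1* and the RNA gene ENSG00000272263, 2914 bp past the end of *RPL32*.

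Among the 225 intervals with 1 H3K27ac list, the highest included *ID2*, *SLC3A2*, *SNORD14E*, *RPL13* and *ACTB*. *ID2*, an inhibitor of basic helix-loop-helix factors, lay at the gene's start with a level of 1.27. An H3K27ac region of at least 2 lists lay 121 bp from the edge of that interval. *SLC3A2*, the heavy chain of the CD98 amino acid transporter, was 1914 bp past the end of its gene, *SNORD14E* 2783 bp past that of *HSPA8*, a constitutive chaperone, *RPL13* 1228 bp past its own end and *ACTB*, cytoplasmic actin, 728 bp past its own. The starts of these 4 genes had H3K27ac in 20, 20, 16 and 19 lists.

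The 118 H3K27ac-poor intervals at coding starts were of 2 sorts. Of them, 56 (47.5%, against 14.5% of other coding starts) were also within 5 kb past the end of another coding gene, and 62 were not. Those past an end had a median CpG ratio (observed over expected) of 0.338, a median width of 1724 bp and an HA peak in 21 (37.5%). The other 62 had a median CpG ratio of 0.693, a width of 728.5 bp and an HA peak in 45 (72.6%). The nearest recurrent H3K27ac region was a median 5632 bp away in the first sort and 16760 bp in the second. Examples past an end were *MSH4*, a meiotic mismatch repair homologue, 2113 bp beyond *RABGGTB*, and *ZACN*, 1141 bp beyond *EXOC7*. Examples not past an end were *PRUNE2*, *RGS16*, *CRISPLD2*, *ID2* and *NGFR*, the low-affinity neurotrophin receptor, which was in 14 lists (5 of VP16 and 9 of p300).

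CpG content followed the same division. In the 300 bases around the nearest start, 250 upstream and 50 downstream, the median CpG ratio was 0.328 (quartiles 0.203 and 0.50) in the H3K27ac-poor intervals and 0.861 (0.739 and 0.962) in the others, and the median GC content was 57.3% against 67.7%. A ratio of at least 0.6 was reached by 145 of 774 (18.7%) against 10386 of 11700 (88.8%). At coding starts alone it was reached by 61 of 118 (51.7%) against 94.8%, with medians of 0.615 and 0.881. Starts away from coding promoters had a median of 0.307.

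**Figure D4:**
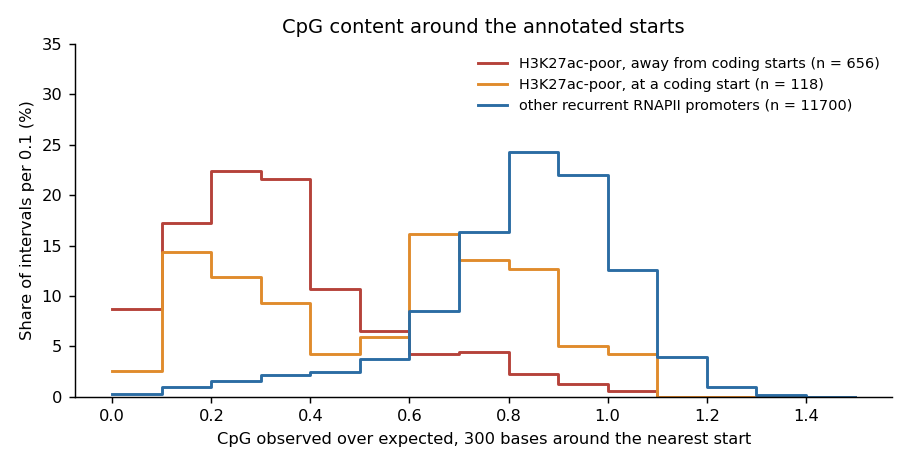
CpG observed over expected in 300 bases around the nearest annotated start (horizontal axis), as the share of intervals per step of 0.1 (vertical axis, percent), for H3K27ac-poor intervals away from coding starts (n = 656), those at a coding start (n = 118) and the other recurrent promoters (n = 11700). The medians were 0.307, 0.615 and 0.861, and the intervals at coding starts spread over both the low and the high range.

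Motifs were counted as exact letters on either strand of the same 300 bases, and none of the motifs contains another. The GC box GGGCGG was in 24.8% of H3K27ac-poor windows against 76.4% of the others, and at coding starts in 61.0% against 79.9%. The ETS motif CCGGAAG was in 3.62% against 19.1%, the NRF1 motif GCGCATGC in 1.55% against 5.78% and the CRE TGACGTCA in 0.775% against 3.42%. CCAAT was in 27.8% against 33.8%, the E-box CACGTG in 6.72% against 10.4%, AAGATGG in 5.17% against 7.65%, CTCGCGAG in 0.129% against 1.91% and ACTACAA in 2.71% against 3.00%. The TATA box TATAAA ran the other way, in 8.40% against 3.74%, and at coding starts in 13.6% against 3.58%. Motifs that hold CG follow the CpG content of the window, so these shares are descriptions of the letters only.

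The HA lists, which the rule did not use, showed few fusion protein peaks at these intervals. An HA peak was present in at least 1 of 7 lists at 191 of 774 (24.7%, 95% interval 21.8 to 27.8), against 11373 of 11700 (97.2%). The share was 55.9% at coding starts, 18.1% inside genes, 15.9% past an end and 40.9% elsewhere. Among the other promoters it was 98.8%, 85.6%, 91.4% and 96.0% at the same places. Most came from the lists with the most peaks, VP16 with the estrogen receptor site pools, replicate 2, with 170 (22.0% against 96.3%) and VP16 Adjacent replicate 2 with 145 (18.7% against 94.6%). The other 3 VP16 lists held 21 to 27 each. The p300 lists, of 154 and 141 peaks, held 0. An HA peak in 5 lists was found at 11 intervals. The 6 with the most RNAPII of these were *NPAS4*, an activity-induced neuronal factor, *PRDM7*, *ARG2* (arginase 2), *ADAMTS9*, a metalloprotease, *SPAG4* and the RNA gene ENSG00000289567.

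Gene families, taken by the prefix of the gene symbol and not by known function, were counted beside the overall rate. At that rate 6.20% of recurrent RNAPII promoters were H3K27ac-poor, and no test was made. Small nuclear RNA genes and their copies named 6 of 23 intervals (26.1%), among them *RN7SKP80*, *RNU6-1251P*, *RN7SKP64* and *RNU7-113P*. Ribosomal protein genes and pseudogenes named 9 of 105 (8.57%), solute carriers 17 of 210 (8.10%), DNA repair and replication genes 9 of 115 (7.83%), ubiquitin pathway genes 11 of 175 (6.29%), RNA processing and translation genes 9 of 217 (4.15%), zinc finger genes 16 of 451 (3.55%), mitochondrial genes 6 of 175 (3.43%) and developmental factors 2 of 91 (2.20%), both of them *FOXK2*. Replication-dependent histone genes named 0 of 15, and a short list of other small RNA genes and their copies (symbols RMRP, RPPH1, RN7SL, RNY and VTRNA) 1 of 4. A second count, by the gene in or behind which the summit lay, covered the H3K27ac-poor intervals alone. It has no share over all recurrent RNAPII promoters beside it, so it cannot show an excess or a lack of any family. Ribosomal protein genes gave 16 intervals at 13 genes. Those past an end included *RPLP1* (597 bp), *RPLP2* (1010 bp), *RPS7* (1160 bp), *RPL23* (1185 bp) and *RPS12* (3419 bp). The same count gave 15 intervals at 14 genes of RNA processing and translation, 17 at 11 of the ubiquitin pathway, 16 at 14 solute carriers, 19 at 16 zinc finger genes, 10 at 8 of repair and replication and 9 at 8 mitochondrial genes. Through the prefix POL, the genes of repair and replication included *POLR2A* and *POLR2C*, which encode subunits of RNAPII itself.

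The 774 intervals were not found equally often in the libraries. RNAPII lists held 16041 to 40757 peaks, and between 379 and 771 of the 774 had a peak in a VP16 list (median 724.5) and between 563 and 762 in a p300 list (median 667.5). H3K27ac lists held 1805 to 32052 peaks, and HA lists 141 to 30740. Read depth is unknown, and a missing peak shows only that the caller's threshold was not passed in that library. Of the H3K27ac hits, 142 came from p300 Adjacent replicate 1 and 58 from VP16 Adjacent replicate 2. Starts of the epithelial genes *KRT8*, *KRT18*, *KRT19*, *EPCAM* and *CDH1* and of *PAX8*, *SOX17* and *ESR1* had RNAPII in all 20 lists, that of *MUC1* in 19 and that of *PGR* in 1. The leukocyte genes looked up and the endothelial genes *CDH5* and *VWF* had it in 0, as had *COL3A1* and *PDGFRB*, and *COL1A1* had it in 4.

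VP16 and p300 libraries were compared at the 175 of 774 H3K27ac-poor intervals that had a peak in all 20 lists, within one limma fit over the 8574 such intervals. The 599 others were not tested. After centring each library on its median, 39 of the 175 (22.3%) passed a Benjamini-Hochberg adjusted p of 0.05, against 18.4% of all intervals tested. RNAPII was higher with VP16 at 32 (18.3% against 11.3%) and lower at 7 (4.00% against 7.11%). An unadjusted p under 0.05 in limma was reached by 73 (41.7% against 34.0%). The median difference, VP16 minus p300, was 0.24 on the log2 scale against 0.00 over all, and 134 of 175 (76.6%) were above 0 against 50.1%. By place, 7 rose and 2 fell among 33 at coding starts, 19 and 2 among 92 inside genes, 6 and 3 among 45 past an end, and 0 of 5 elsewhere. Among the other promoters, 708 rose and 488 fell of 6842 at coding starts, and 58 and 45 of 510 inside genes. Past an end the counts were 21 and 8 of 136, and elsewhere 68 and 31 of 416. The medians of the H3K27ac-poor intervals were 0.13, 0.26, 0.28 and 0.20. The medians of the other promoters were -0.02 inside genes and 0.03 past an end. Leaving out 1 library at a time gave 22 to 84 calls, with 84 (48.0% against 31.6% of all intervals) without p300 *IL1RN* replicate 1, 22 (12.6% against 9.20%) without p300 Pool 2 replicate 2, 24 (13.7% against 10.2%) without p300 Adjacent replicate 1 and 25 (14.3% against 11.3%) without p300 Pool 3 replicate 2. The median difference at the 175 was 0.14 without p300 *IL1RN* replicate 2 and 0.14 with quantile normalization.

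The 5 largest differences towards VP16 lay within 5 kb past the end of a coding gene, and 1 of these was also at a coding start. By place, calls towards VP16 were made at 7 of 33 at coding starts, 19 of 92 inside genes and 6 of 45 outside genes and past an end. At *RPL7A*, 881 bp past the end of this ribosomal protein gene (chr9:136218050-136221028), the centred log2 enrichment was -0.34, 0.09 and 0.67 (lowest, median and highest) with VP16 and -2.46, -1.22 and 0.27 with p300. The difference was 1.24 (SE 0.28, limma adjusted p = 0.00933). At *IDH3B*, past *NOP56*, the values were 0.11, 1.12 and 1.41 against -1.22, -0.34 and 1.21, a difference of 1.23 (SE 0.27, limma adjusted p = 0.00941). In both, all 10 VP16 libraries lay above the p300 median, and the ranges overlapped.

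At *IQCG* (chr3:197682709-197686257), 830 bp past the end of the ribosomal protein gene *RPL35A*, the centred values were -0.58, -0.03 and 0.36 with VP16 and -2.33, -1.19 and 0.40 with p300, a difference of 1.18 (SE 0.27, limma adjusted p = 0.00952). *OPN1SW* (chr7:128414034-128417504), the blue cone opsin gene, lay 1702 bp past the end of *CALU*. Its summit was also 692 bp from its own start, and by place it counted as a coding start. The values at *OPN1SW* were -0.27, 0.36 and 0.84 against -2.12, -1.0 and 0.83, a difference of 1.14 (SE 0.31, limma adjusted p = 0.0218). *GPD1* (chr12:50495790-50498096), a glycerol-3-phosphate dehydrogenase gene, 2200 bp past *SMARCD1*, a subunit of the SWI/SNF remodeller, gave -1.13, -0.42 and 0.02 against -2.69, -1.45 and -0.26, a difference of 1.06 (SE 0.26, limma adjusted p = 0.0137). The p300 libraries spread more widely than the VP16 libraries at each of them.

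The differences towards p300 were smaller. The largest were at *IFITM10* (chr11:1767299-1772896), 2811 bp past the end of *CTSD*, the cathepsin D gene, with -0.66 (SE 0.20, limma adjusted p = 0.0328), and at *ZNF232-AS1* (chr17:5000182-5001347), with -0.62 (SE 0.13, limma adjusted p = 0.00702), where 8 of 10 VP16 libraries lay below every p300 library. By place, the *IFITM10* interval was also at a coding start. *ARG2* (chr14:68086133-68086987), at its own start, differed by -0.58 (SE 0.15, limma adjusted p = 0.0154), with centred values of -1.46, -0.64 and -0.43 with VP16 and -0.60, -0.30 and 0.14 with p300. *POU2F2*, past *DEDD2*, differed by -0.55 (SE 0.15, limma adjusted p = 0.0229), and ENSG00000268518 (chr19:50991494-50996953), 401 bp past *EMC10*, by -0.54 (SE 0.18, limma adjusted p = 0.0460). Of 29 alternatives, the call was lost in 14 at *IFITM10* and in 18 at ENSG00000268518, whose direction also turned in 1. The difference was -0.28 at *PRUNE2* (SE 0.26, limma adjusted p = 0.460) and -0.37 at *MRNIP* (SE 0.18, limma adjusted p = 0.163).

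**Figure D5:**
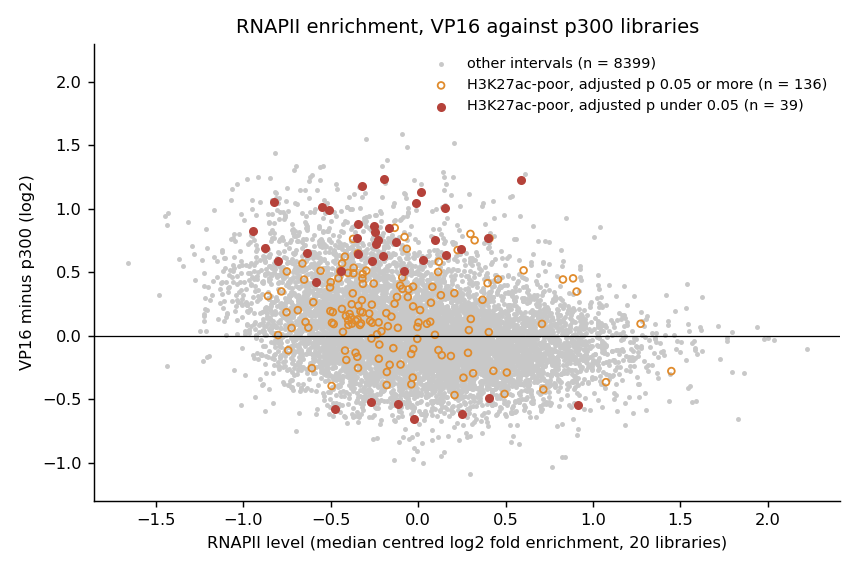
Difference in RNAPII between VP16 and p300 libraries (vertical axis, log2, VP16 minus p300) against the level of the interval (horizontal axis, median centred log2 fold enrichment of 20 libraries), for the other intervals and the 175 H3K27ac-poor intervals found in all lists. Filled points are the 39 with an adjusted p under 0.05, 32 of them above 0 and 7 below.

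The difference between constructs moved with the level of an interval and with the libraries. All 10 p300 libraries shared 1 number at the start of their peak names, whereas 7 VP16 libraries carried another number and 3 none. The labels do not say what this number stands for. Construct and whatever it marks cannot be told apart. Over all intervals tested the median difference was 0.17, 0.02, -0.05 and -0.09 from the lowest to the highest of 4 equal bins of level, and in the 62, 60, 32 and 21 H3K27ac-poor intervals of those bins it was 0.26, 0.24, 0.17 and 0.09. The spread of log2 enrichment within a library was 0.494 to 0.592 (SD) with VP16 and 0.520 to 0.791 with p300. The part of level and spread in the difference was not tested further. Without centring, the median of all intervals was -0.71 and that of the H3K27ac-poor intervals -0.48. Of the 175, 1 was called higher and 85 lower (49.1% called), against 21 and 6221 of the 8574 (72.8%). The directions above are thus relative to the median interval of a library.

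Directing the activators to the targeted regions (Pools 1 to 3 and Adjacent together), in place of the *IL1RN* promoter, gave no called change at these intervals. With VP16, limma called 0 of the 175 and 0 of 8574 (0%) at an adjusted p of 0.05, and 3 (1.71%) had an unadjusted p under 0.05 against 2.37% of all intervals. Those were *SPAG4* with -0.91 (SE 0.34), *ACY1*, aminoacylase 1, with -0.65 (SE 0.28) and *SLC38A10* with -0.61, and their adjusted p in limma was 1.000. The median of the 175 was -0.11 against -0.01 over all intervals, and -0.20 without VP16 Pool 3 replicate 1, -0.06 without VP16 Pool 2 replicate 2 and -0.03 without VP16 Pool 3 replicate 2. With p300, limma called 0 of 175 and 0 of 8574 (0%), and 1 (0.571%) had an unadjusted p under 0.05 against 2.79% of all intervals. It was *PRUNE2*, with 1.04 (SE 0.45, limma adjusted p = 0.998), a value that includes the low p300 *IL1RN* replicate 1. The median was -0.05 against 0.02 over all intervals, and its sign depended on the control library kept: it was 0.52 (0.03 over all) without p300 *IL1RN* replicate 1 and -0.57 (-0.07 over all) without p300 *IL1RN* replicate 2. Without the latter, limma called 2 of the 175 (1.14% against 1.98% of all intervals). The difference between the pool effects of the constructs was called at 0 of 175 in limma, with 5 at an unadjusted p under 0.05 (2.86% against 3.24%).

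Presence and absence of peaks gave a few intervals that were complete in one construct. All 10 VP16 lists held a peak at 297 of the 774 (38.4% against 76.0% of the other recurrent promoters) and all 10 p300 lists at 324 (41.9% against 74.3%). The most unequal at 14 lists, with all 10 of one construct and 4 of the other, were *DYNLL1*, the dynein light chain, 778 bp past its end, *GLS2*, the liver-type glutaminase, ENSG00000230532 and ENSG00000224635 for VP16, and a further interval in *NFE2L3* at 72.6% of its length, *SLC38A10* at 91.9%, *FSCN1*, the actin bundler fascin, at 77.2% and *LAT2*, an adaptor of immune receptor signalling, at 59.3% for p300. Since these were picked for the inequality, no test was made.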

How the data were processed

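ChIP-seq peak lists of RNAPII, H3K27ac and HA were analysed. Per the submitters' processing notes, reads were handled on hg19 with Bowtie 1.1.2, SAMtools, bedtools and MACS2 2.1.0.20140616, and the authors deposited 1 peak list per library, in which each peak has a fold enrichment (a ratio over local background) and a −log10 p, the lowest of which was 10.0. Read depth is not in the lists and limits precision to an unknown degree. The normalized count table was not used. Samples were grouped by their labels, which do not say whether the 2 replicates of a group were separate cultures, so p-values measure the spread between these samples.

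RNAPII intervals were merged at 1 bp overlap and annotated with GENCODE 44 lifted to GRCh37. An end was the end of a canonical coding transcript. For each library the highest fold enrichment in an interval was taken as log2 and centred on the library's median over the 8574 intervals present in all 20 lists. Group means of the 10 groups were fitted with limma 3.58.1 (R 4.3.3), and Benjamini-Hochberg adjustment covered all 8574. VP16 was compared with p300 over all gRNA sets, and the 4 targeted sets (Pools 1 to 3 and Adjacent) with *IL1RN* within each construct. No pseudocount was needed. The fit was tested on simulated data. Confidence intervals are Wilson intervals for shares and exact binomial order statistics for medians.

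Named intervals were the 24 of highest level with no H3K27ac list, the 5 largest called differences in each direction, the 4 highest in each gene list, the 6 with most HA lists (ties by RNAPII level), and those complete in 1 construct. *ID2*, *SLC3A2*, *SNORD14E*, *RPL13*, *ACTB*, *MSH4*, *ZACN*, *NGFR*, *ACY1* and the genes given with a distance past their end were chosen after their values were seen. The intervals and gene lists were chosen with earlier results of these data known. Alternatives to the count of intervals, normalization, library set and thresholds are in the closing section. A few named intervals and 1 sequence are not reported here.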

Additional observations from a re-analysis of the deposited data

Results flagged for a closer look

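A library stood apart from the others of its construct in 7 of the 68 groups of 10 libraries looked at (Dixon's test at 95%), and chance flags about 1 in 20 groups. H3K27ac VP16 Adjacent replicate 2 had peaks at 58 of the H3K27ac-poor intervals, far above the other VP16 libraries. H3K27ac p300 Adjacent replicate 1 had peaks at 142, far above the other p300 libraries. The rule allowed each interval at most 1 H3K27ac list, so these 2 flags rest on values used for the selection. They cannot show that the 2 libraries are unusual, and the rate by chance does not apply to them. In RNAPII, as centred log2 enrichment, *PRUNE2* was lowest in p300 *IL1RN* replicate 1 at -0.63. *MIR130AHG* was lowest in VP16 *IL1RN* replicate 1 at -0.24. *MIR150* was highest in p300 *IL1RN* replicate 1 at 0.92. *ZNF232-AS1* was lowest in VP16 Pool 1 replicate 2 at -0.62. *PYGM* was lowest in VP16 Pool 3 replicate 2 at -1.73. The causes were not tested.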

How the results depend on the processing

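The number of H3K27ac-poor intervals, 774, was 1377 with RNAPII in at least 10 lists, 175 with RNAPII in all 20, and 2052 when the 10 p300 H3K27ac lists alone were used, and it ranged from 663 to 887 when 1 list was left out. The share at a coding start, 15.2%, was 18.9% for intervals in all 20 lists and 18.9% with up to 2 H3K27ac lists allowed, 18.2% with a start within 500 bp, 12.2% within 2 kb, 20.2% with protein-coding starts alone and 53.2% with the p300 H3K27ac lists alone. It was 11.6% with the summit within 500 bp of the start, 20.2% within 2 kb and 29.5% with any canonical start, and 13.9% to 18.7% when 1 list was left out. These alternatives for the share were chosen after seeing the data. The lowest p300 H3K27ac list had 1805 peaks, so a missing peak carries little information there.

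The 39 called differences between VP16 and p300 (22.3% against 18.4% of all intervals) became 97 (12.5% against 10.4%) over intervals of at least 14 lists with absent peaks set to the lowest enrichment, 137 (17.7% against 19%) with absent peaks left missing and 86 (49.1% against 72.8%) with no further normalization, so the share fell below that of all intervals in the last 2. Leaving out 1 library gave 22 (12.6% against 9.20%, without p300 Pool 2 replicate 2) to 84 (48.0% against 31.6%, without p300 *IL1RN* replicate 1), and the median difference, 0.24, ranged from 0.14 to 0.33. A replicate block gave 44 (25.1% against 20.7%). The replicate numbers did not pair the samples, however, since the deviations of same-numbered libraries correlated at -0.402 to 0.72 (median 0.0243) over 45 pairs of groups. With the median of the peaks of a list, *POU2F2* turned to 0.28 and ENSG00000268518 to 0.04, and the latter lost its call in 18 and *IFITM10* in 14 of 29 alternatives. With a term for the VP16 libraries whose peak names carried no number, the median of the VP16 targeted sets against *IL1RN* was 0.03. The targeted sets gave 0 calls with VP16 under each alternative and 0 to 2 with p300 when a library was left out, the 2 being without p300 *IL1RN* replicate 2. The cause was not tested.

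The share with an HA peak, 24.7%, was 28.4% within 500 bp of the interval and 18.9% to 24.7% when 1 list was left out, lowest without VP16 replicate 2 of the estrogen receptor site pools. The median distance to H3K27ac, 4782 bp, was 10290 bp to peaks of at least 10 lists, 1729 bp to a peak of any list and 5829 bp from the start.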
